A study of Mus musculus with 5 samples.

Results

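The inflammatory chemokines and cytokines described here are 8 genes, which were taken by name from the 28692 genes counted in each of 5 bone marrow libraries. They are the neutrophil-attracting chemokine *Cxcl2*, the CC chemokines *Ccl3*, *Ccl4*, *Ccl6* and *Ccl9*, the cytokines *Il1b* and *Tnf*, and *Il1rn*, which encodes the antagonist of the interleukin-1 receptor. All 8 were present in the libraries of all 5 days. They were followed across classes of marrow cells, above all the stages of neutrophils and the monocytes, and across the days.

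The marrow came from 5 C57BL/6J mice aged 8 weeks, each injected by the tail vein with 1000 BCR-ABL1 pre-B acute lymphoblastic leukemia (ALL) cells. The mice were immunocompetent and had not been irradiated, so their own marrow cells were in place. The day 0 mouse was killed right after the injection and the others on days 3, 6, 9 and 12, which means that the day 0 animal also carried the injected cells and no library came from an uninjected mouse. Flushed marrow and cells freed from crushed bone with collagenase and DNase I were pooled, and red cells were lysed. The cells were then frozen with dimethyl sulfoxide and shipped before sequencing. Single cells were sequenced on droplets, a method that counts unique molecular identifiers (UMIs) per gene and cell. With 1 mouse and 1 library per day, day, animal and library cannot be told apart and no test between days was made. Differences between days describe these 5 animals.

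As background, chemokines are small secreted proteins that draw leukocytes through G protein-coupled receptors. *Cxcl2* acts on neutrophils through *Cxcr2*, whereas *Ccl3* acts through *Ccr1* among other receptors and *Ccl4* attracts monocytes and lymphocytes, and *Ccl6* and *Ccl9* are mouse CC chemokines of the myeloid lineage. *Il1b* and *Tnf* are the classical early cytokines of myeloid cells, and *Il1rn* competes with *Il1b* for its receptor. Transcription of *Cxcl2*, *Ccl3*, *Ccl4*, *Il1b* and *Tnf* is known to be induced within a short time after a stimulus, through NF-kappaB and AP-1 among other factors. Neutrophils mature in the marrow from proliferating precursors through immature to late cells that are released into blood.

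The 4 CC chemokine genes lay together on chromosome 11 within 91.8 kb, at chr11:83572919-83664683 of GRCm38 (GENCODE vM21), with *Ccl9*, *Ccl6* and *Ccl3* on the minus strand and *Ccl4* on the plus strand. *Cxcl2* lay at chr5:90903871-90905938 (plus strand), *Il1b* at chr2:129364570-129371139 (minus strand), *Il1rn* at chr2:24336853-24351494 (plus strand) and *Tnf* at chr17:35199381-35202007 (minus strand). *Il1b* overlapped the antisense gene *Il1bos* and *Ccl6* overlapped *E230016K23Rik* on the other strand. Whether the counting used strand is not given in the sources used here, so reads of these overlapping pairs cannot be told apart.

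Promoters of 7 of the 8 genes, all except *Ccl4*, were found in the RefSeq table of GRCm38.p6. For *Cxcl2* and *Ccl3* the RefSeq start differs from the GENCODE position given above. The 250 bases before the RefSeq start of *Cxcl2*, *Ccl3*, *Il1b* and *Ccl9* are shown 5′ to 3′. The first 3 are among the genes that were lower at days 3, 6 and 9 in late neutrophils. *Ccl9* had its highest mean level in monocyte-like cells. Capitals mark matches to an NF-kappaB motif (GGG, any 2 bases, TTTCC), an AP-1 motif (TGANTCA) or a C/EBP motif (TTGCNNAA) on either strand.
Cxcl2 (chr5:90903649-90903898, plus strand): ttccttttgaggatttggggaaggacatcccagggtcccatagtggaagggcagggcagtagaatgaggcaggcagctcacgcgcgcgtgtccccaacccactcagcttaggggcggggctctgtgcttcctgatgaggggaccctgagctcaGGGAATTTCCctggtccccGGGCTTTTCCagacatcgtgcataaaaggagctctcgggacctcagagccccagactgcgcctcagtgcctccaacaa
Ccl3 (chr11:83649379-83649628, minus strand): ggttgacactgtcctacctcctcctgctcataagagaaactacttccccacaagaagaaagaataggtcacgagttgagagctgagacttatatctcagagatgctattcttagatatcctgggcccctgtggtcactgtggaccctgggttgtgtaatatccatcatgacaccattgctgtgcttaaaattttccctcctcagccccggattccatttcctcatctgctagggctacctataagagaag
Il1b (chr2:129371140-129371389, minus strand): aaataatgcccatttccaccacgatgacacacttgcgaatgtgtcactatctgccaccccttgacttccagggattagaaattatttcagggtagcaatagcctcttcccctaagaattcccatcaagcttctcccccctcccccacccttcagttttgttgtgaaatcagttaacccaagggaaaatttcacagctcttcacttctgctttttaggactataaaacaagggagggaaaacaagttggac
Ccl9 (chr11:83578637-83578886, minus strand): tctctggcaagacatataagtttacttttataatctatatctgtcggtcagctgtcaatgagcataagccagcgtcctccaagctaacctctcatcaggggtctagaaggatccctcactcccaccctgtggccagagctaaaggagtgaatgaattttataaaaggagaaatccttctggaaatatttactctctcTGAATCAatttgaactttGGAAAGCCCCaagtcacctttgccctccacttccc
Over the whole window of 300 bases, which also holds the first 50 bases after the start, *Cxcl2* had 2 matches to the NF-kappaB motif and *Ccl9* had 1 match to it and 1 to the AP-1 motif. The promoter at the first start of *Il1rn* held 1 AP-1 match. The windows of its later starts overlapped and held the same single NF-kappaB match. *Ccl3*, *Ccl6*, *Il1b* and *Tnf* held no match to any of the 3 motifs in these windows. Among 32851 promoters of the same length, 1.63% held the NF-kappaB motif, 7.81% the AP-1 motif and 10.8% the C/EBP motif. The matches describe the letters only.

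Barcodes with at least 500 UMIs and at most 10% mitochondrial UMIs gave 29679 cells, with 4870 to 6944 per library, from libraries of 33425695 to 43554233 UMIs. The median was 3143 to 4397 UMIs per cell. Clusters were built without the 8 genes and without the 4 other gene lists used here, and classes were named from marker genes with the ending "-like". In the 3278 monocyte-like cells *Ly6c2* was at 26.3 to 38.4 and *F13a1* at 5.70 to 7.66 UMIs per 10000 UMIs, and in the 4904 late neutrophil-like cells *S100a8* was at 1816 to 2288 and *Csf3r* at 5.93 to 7.19. A cluster of 1108 cells led by *H2-Eb1*, *H2-Aa* and *Cd209a* was left unnamed. At a finer clustering (resolution 1.2), 549 of these cells (49.5%) fell into a cluster led by *Nr4a2* and *Cd14* that the same markers named monocyte-like, so the monocyte-like class used here leaves out cells that the finer clustering put with the monocytes. Of the barcodes, 494 occurred in at least 2 libraries, and these cells were 3.36% of all. Without them, each direction and each count of the 8 genes was the same, except that 3 and not 4 genes were lower at day 12 in late neutrophil-like cells. The libraries of days 0 and 12 stood apart from the others in genes induced by stress or dissociation, and those values are given beside the results. Levels are UMIs of a gene per 10000 UMIs of a class, with exact 95% Poisson intervals, and shares of cells have exact binomial 95% intervals. Both cover counting error only. Free RNA adds UMIs to every droplet, so values of B-like cells, which should lack most of these transcripts, are given as background. At day 12 these rest on 96 cells and can be too low. *Cxcl2* was then at 0.073 UMIs per B-like cell, but at 0.419 per T-like and 0.344 per pro/pre-B-like cell (32 cells). Levels are compared between classes and days within a gene.

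Late neutrophil-like cells had the highest mean level of 5 of the 8 genes, which were *Cxcl2*, *Ccl3*, *Ccl6*, *Il1b* and *Il1rn*. The mean over libraries for *Cxcl2* was 12.7 ± 11.3 UMIs per 10000 UMIs (SD, n = 5 libraries) in late neutrophil-like cells, followed by 5.4 ± 4.84 in the unnamed *H2-Eb1* cluster and 2.91 ± 2.68 in intermediate neutrophil-like cells among the classes with all 5 libraries. These ranges overlapped, since the spread between days was larger than the gaps between neighbouring classes. Within each library, late cells were above both the *H2-Eb1* cluster and intermediate cells. The few unstaged neutrophil-like cells reached 50 cells in 3 libraries only and are left out of this order. For *Ccl6* the late cells had 39.0 ± 5.98 with a range of 28.9 to 43.2, which lay above all other classes. Intermediate neutrophil-like cells (10.1 ± 3.08), the *H2-Eb1* cluster (8.66 ± 1.04) and monocyte-like cells (8.40 ± 0.843) followed and did not differ beyond their spread. By mean level, those unstaged cells would come second for *Ccl6*, with a range of 15.2 to 26.2 that lay above the intermediate cells. *Il1rn* was at 1.97 ± 0.252 in late and 1.30 ± 0.243 in intermediate cells, with ranges of 1.56 to 2.23 and 0.936 to 1.54, which did not overlap, and the unstaged cells lay between them (1.10 to 1.66) and overlapped both.

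**Figure D1:**
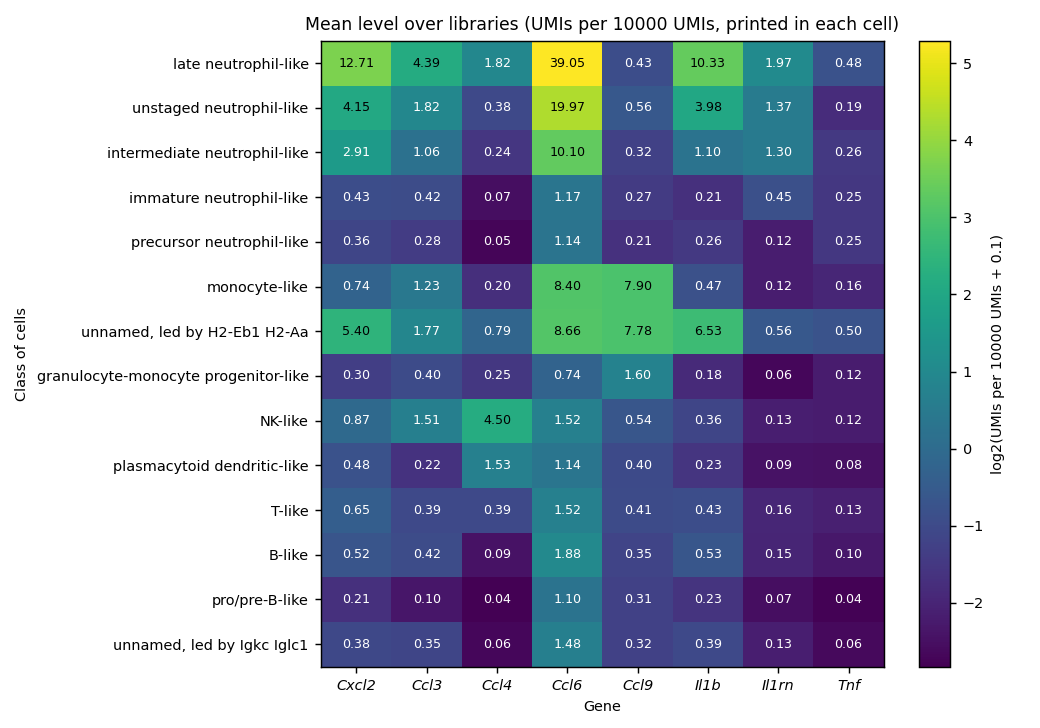
Mean level of each gene (columns) in each class of cells (rows), as UMIs per 10000 UMIs averaged over the libraries with at least 50 cells of the class, with the value printed and the colour on the scale log2(level + 0.1). *Cxcl2*, *Ccl3*, *Ccl6*, *Il1b* and *Il1rn* were highest in late neutrophil-like cells, *Ccl9* in monocyte-like cells (7.90) and *Ccl4* in NK-like cells (4.50).

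The other 3 genes had other leading classes. *Ccl9* was at 7.90 ± 1.46 in monocyte-like cells and 7.78 ± 1.12 in the *H2-Eb1* cluster, which did not differ beyond their spread, and granulocyte-monocyte progenitor-like cells came next with 1.60 ± 0.399. *Ccl4* had its highest mean in NK-like cells, with 4.50 ± 2.85 over the 4 libraries that held at least 50 of them. Their range of 1.16 to 7.05 overlapped that of late neutrophil-like cells (0.751 to 3.64). At day 6 late cells (1.45) were above NK-like cells (1.16). *Tnf* was low in every class, at 0.495 ± 0.101 in the *H2-Eb1* cluster and 0.477 ± 0.0991 in late neutrophil-like cells, and these did not differ beyond their spread. At the finer clustering, its mean was 0.662 in the *Nr4a2* cells and 0.339 in the finer cluster led by *H2-Eb1*. It was 2.20 in a late cluster led by *Irg1*.

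Because classes differ in size and RNA content, the share of a gene's UMIs that each class held was also counted. Neutrophil-like cells of all stages held 64.1% to 88.6% of *Cxcl2* UMIs per library and 78.9% to 92.2% of *Il1rn* UMIs, at 45.4% to 65.3% of all UMIs. Late cells alone held 41.8% to 46.4% of *Ccl6* UMIs at 6.23% to 7.995% of all UMIs. Monocyte-like cells held 62.4% to 71.4% of *Ccl9* UMIs. The signal of *Ccl3* was more divided, with 44.1% to 71.4% in neutrophil-like and 17.9% to 27.4% in monocyte-like cells.

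To ask how the genes changed with neutrophil maturation, late and immature neutrophil-like cells of the same library were compared with edgeR's quasi-likelihood test on summed counts, with the library as a block. All 8 genes were higher in late cells, each in 5 of 5 libraries. Of 7537 genes tested, 30.8% were higher and 30.9% lower in late cells at an adjusted p under 0.05. *Il1b* rose by a log2 fold change of 5.42 (SE 0.114, adjusted p = 4.86e-21), *Ccl6* by 4.96 (SE 0.129, adjusted p = 1.69e-19) and *Cxcl2* by 4.66 (SE 0.124, adjusted p = 2.65e-19). Per library, the log2 ratios of these 3 genes were 5.15 to 6.39, 4.70 to 6.07 and 4.34 to 5.67, well above 0 in each. *Ccl4* rose by 4.37 and *Ccl3* by 3.32 on the log2 scale, followed by *Il1rn* with 1.96 (SE 0.0874, adjusted p = 2.83e-15). *Tnf* (0.75, SE 0.125, adjusted p = 1.64e-05) and *Ccl9* (0.49, SE 0.121, adjusted p = 0.00116) rose least, and the call for *Ccl9* was lost without the library block (adjusted p = 0.101) and when every cell was thinned to 1000 UMIs (adjusted p = 0.132).

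The lower end of this comparison lay near the background for several genes, so a fold against it is uncertain. Immature neutrophil-like cells held 0.316 to 0.794 *Ccl6* UMIs and 0.074 to 0.136 *Il1b* UMIs per cell, while B-like cells held 0.188 to 0.627 and 0.062 to 0.154. After thinning to 1000 UMIs per cell, 1.42% to 3.51% of immature cells and 1.23% to 5.56% of B-like cells had an *Il1b* UMI, which is background, compared with 38.4% to 55.0% of late cells. *Il1rn* differed from this, with 0.151 to 0.279 UMIs per immature cell against at most 0.039 per B-like cell. Intermediate cells lay between both stages in 5 of 5 libraries for each of the 8 genes except *Tnf* (2 of 5), for example with *Ccl6* at 6.00 to 13.3 and *Il1b* at 0.734 to 1.65 UMIs per 10000 UMIs.

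Monocyte-like and neutrophil-like cells of the same library were compared in the same way. *Ccl9* was higher in monocyte-like cells, with a log2 fold change of 3.69 (SE 0.105, adjusted p = 3.01e-14) and 5 of 5 libraries above. The other 7 genes were lower under TMM scaling, but for *Ccl3* (-0.89) and *Ccl6* (-1.07) the direction depended on the scaling, since scaling to total counts gave 0.26 (adjusted p = 0.0131) and 0.0761 (adjusted p = 0.398). *Il1rn* fell by 3.67 (SE 0.0745, adjusted p = 8.03e-16), *Il1b* by 3.11 (SE 0.0604, adjusted p = 4.74e-16) and *Cxcl2* by 2.93 (SE 0.0877, adjusted p = 5.23e-14) on the log2 scale, and these 3 remained lower with total counts (-2.54, -1.97 and -1.78) and lower in 5 of 5 libraries. *Tnf* (-2.03) and *Ccl4* (-1.84) were also lower under both scalings, at -0.89 and -0.69 with total counts, although *Ccl4* was higher in monocyte-like cells in 2 of 5 libraries. Of 10556 genes tested, 39.1% were higher and 40.2% lower in monocyte-like cells, and with total counts 8326 were higher and 1297 lower, because the median of all genes moved by 1.13 on the log2 scale. The folds also depended on which cells were taken as monocytes. At the finer clustering, with the *Nr4a2* cells included, they shrank to -1.43 for *Il1b*, -1.66 for *Cxcl2*, -3.00 for *Il1rn*, -1.58 for *Tnf*, -1.32 for *Ccl4* and -0.60 for *Ccl3*, each still lower under TMM scaling (adjusted p of at most 0.000343). Total counts were not tried at the finer clustering, so the folds there hold for TMM scaling only. The call for *Ccl3* was also lost without the library block (adjusted p = 0.178).

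**Figure D2:**
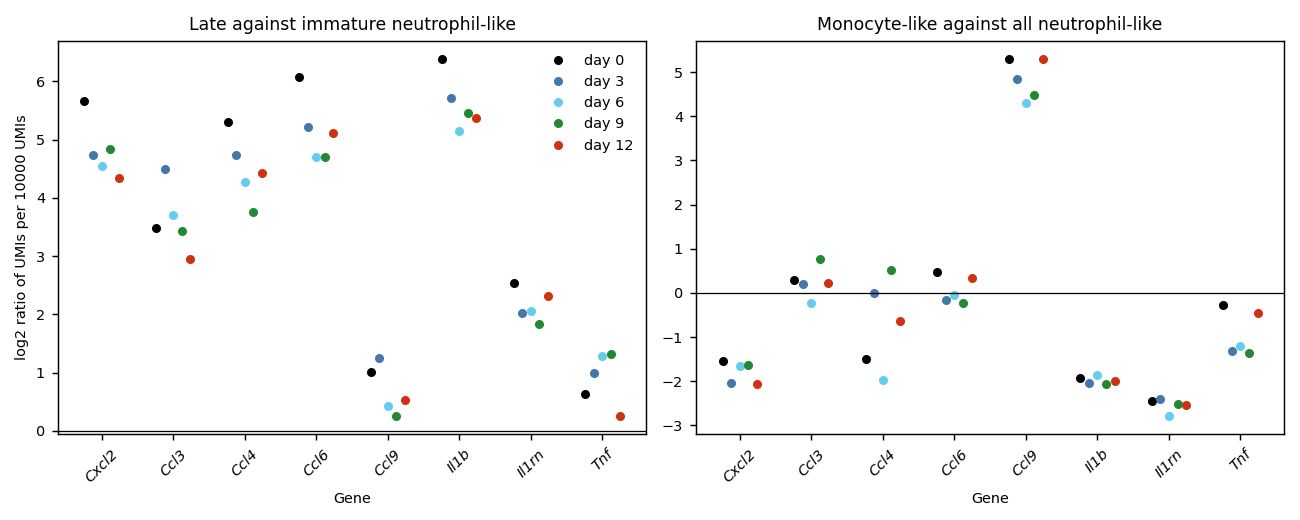
Log2 ratio of UMIs per 10000 UMIs between classes of the same library for each gene, with 1 point per library coloured by day; left, late against immature neutrophil-like cells, right, monocyte-like against all neutrophil-like cells. All 40 points on the left lie above 0, while on the right, on this total-count scale, *Ccl9* lies above 0, *Cxcl2*, *Il1b*, *Il1rn* and *Tnf* lie below 0, and *Ccl3*, *Ccl4* and *Ccl6* have points on both sides (*Ccl3* and *Ccl6* turn negative under TMM scaling).

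Between days, the clearest differences in late neutrophil-like cells were those of *Cxcl2* and *Ccl3*. These were high at day 0 and day 12 and low at days 3, 6 and 9. *Cxcl2* was at 28.4, 3.59, 5.64, 4.71 and 21.2 UMIs per 10000 UMIs in the order of the 5 days. Each of the 3 middle days was below both ends, and no interval of a middle day reached that of day 0 or day 12. *Ccl3* was at 9.80, 2.02, 2.27, 1.43 and 6.41, and *Ccl4* at 3.64, 0.88, 1.45, 0.75 and 2.40 UMIs per 10000 UMIs. Both followed the order of *Cxcl2* in setting days 0 and 12 above the 3 others. For *Ccl4* these sums rested on few cells. The cell with the most *Ccl4* UMIs held 63 of 667, 52 of 190, 48 of 337, 38 of 179 and 62 of 513 in the order of the days. The intervals from counting error do not cover such an uneven spread over cells. As ratios to day 0, *Cxcl2* was 0.127 at day 3 (95% interval 0.117 to 0.137), 0.199 at day 6, 0.166 at day 9 and 0.747 at day 12 (0.718 to 0.777). The share of late cells with a *Cxcl2* UMI after thinning was 49.8%, 14.6%, 22.5%, 20.7% and 50.8% in the order of the days. Per cell, late cells held 5.46, 0.919, 1.26, 1.06 and 4.49 *Cxcl2* UMIs, and B-like cells 0.228, 0.026, 0.088, 0.066 and 0.073. T-like cells held 0.298, 0.045, 0.087, 0.046 and 0.419.

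*Il1b* was at 15.9, 8.60, 10.0, 7.44 and 9.67 UMIs per 10000 UMIs in late neutrophil-like cells, so that day 0 was highest and day 12 lay among the middle days. Its share of late cells after thinning was 55.0%, 44.3%, 48.6%, 38.4% and 44.8%. *Ccl6*, in contrast, was at 38.3, 42.5, 42.4, 43.2 and 28.9, with 85.7% to 94.3% of late cells positive after thinning. Its middle days were slightly above day 0 and day 12 was lowest, with a ratio of 0.756 (0.730 to 0.782). *Il1rn* was at 1.99, 2.08, 2.23, 2.01 and 1.56, and only the interval of its ratio at day 12 (0.783, 0.673 to 0.911) lay below 1. *Tnf* was at 0.45, 0.53, 0.56, 0.52 and 0.31, and *Ccl9* at 0.43, 0.49, 0.64, 0.37 and 0.22, both lowest at day 12.

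**Figure D3:**
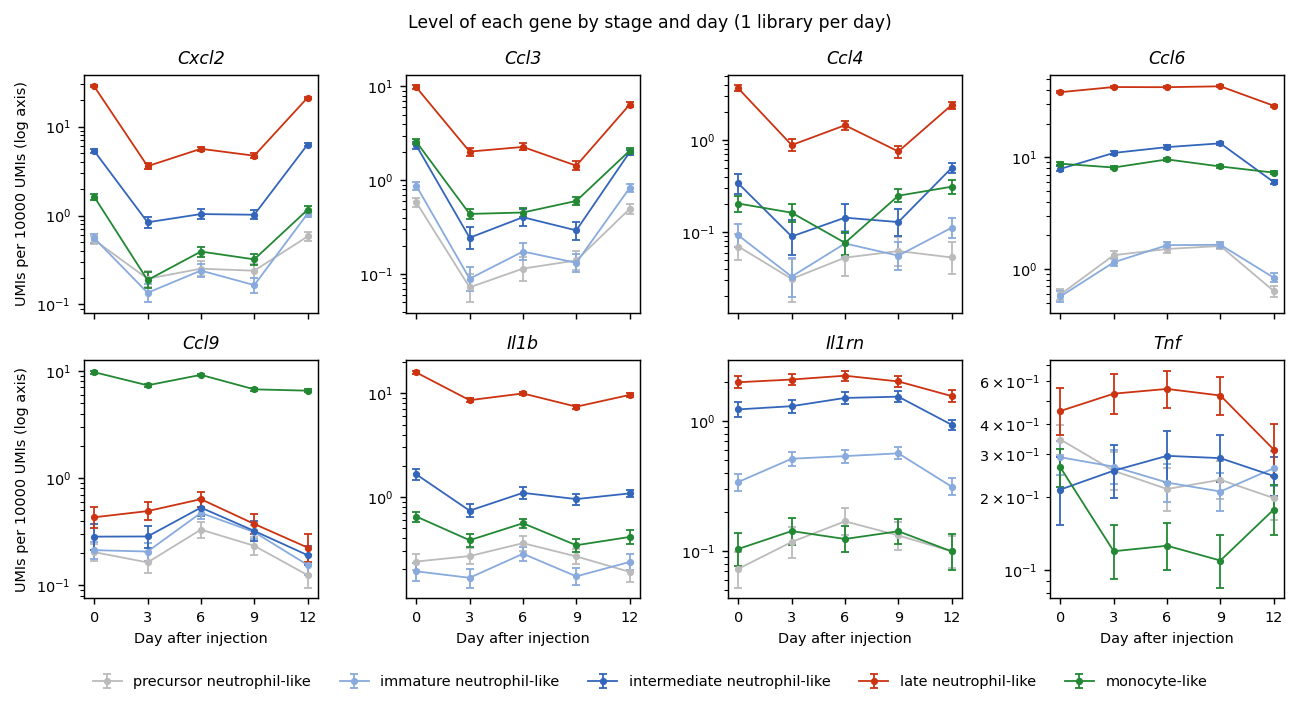
Level of each gene (UMIs per 10000 UMIs, log axis) by day after injection in 4 stages of neutrophil-like and in monocyte-like cells, with exact 95% Poisson intervals as bars and 1 library per day. *Cxcl2* and *Ccl3* are low at days 3, 6 and 9 in each of the 5 classes, while *Ccl6* in late cells stays between 28.9 and 43.2 and *Ccl9* is highest in monocyte-like cells on all 5 days.

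Counted at 1.5-fold, 4 of the 8 genes were lower than day 0 in late neutrophil-like cells at each of days 3, 6, 9 and 12, and none was higher. Among all genes detected in 10% or more of the cells, 4.6%, 3.58%, 5.75% and 6.57% were lower and 4.95%, 5.67%, 6% and 2.3% higher at these days. Of the 8 genes, 7, 7, 6 and 6 passed that filter, and 4, 4, 4 and 3 of these were lower. The lower genes were *Cxcl2*, *Ccl3*, *Ccl4* and *Il1b* at days 3, 6 and 9, and *Ccl3*, *Ccl4*, *Ccl9* and *Il1b* at day 12. Near the limit, *Il1b* at day 6 (0.627) and *Ccl4* at day 12 (0.660) lay just inside and *Tnf* at day 12 (0.693) just outside, and at a 2-fold limit no gene was counted at day 12.

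Over neutrophil-like cells of all stages, *Cxcl2* was at 4.77, 0.77, 1.25, 1.0 and 4.87 UMIs per 10000 UMIs and *Ccl3* at 2.08, 0.38, 0.53, 0.35 and 1.76. Days 0 and 12 were close for *Cxcl2*, with a log2 ratio of 0.03. Here 4, 3, 4 and 1 of the 8 genes were lower at days 3, 6, 9 and 12, beside 2.96%, 2.38%, 3.09% and 2.34% of all genes, and 0, 3, 1 and 0 were higher, beside 4.63%, 10.5%, 12.1% and 3.45%. Of the 8 genes, 7 passed the filter on each day and *Ccl4* did not, and 3, 2, 3 and 1 of the 7 were lower and 0, 3, 1 and 0 higher. The 3 genes above 1.5-fold at day 6 were *Ccl6*, *Ccl9* and *Il1rn*, of which 1 was left when the 4 stages were given equal weight. Neutrophil-like cells made up 48.1%, 60.8%, 53.4%, 56.5% and 74.7% of the cells.

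The same order of days was seen within earlier stages for *Cxcl2* and *Ccl3*. In intermediate cells *Cxcl2* was at 5.33, 0.84, 1.04, 1.02 and 6.30 UMIs per 10000 UMIs, and in immature cells at 0.56, 0.14, 0.24, 0.16 and 1.05. Day 12 was thus above day 0 in both of these stages and below it in late cells. The *Cxcl2* levels of immature cells lay near the background, so its days are not a separate result there. Per cell, immature cells held 0.310, 0.073, 0.117, 0.071 and 0.507 *Cxcl2* UMIs. T-like cells held 0.298, 0.045, 0.087, 0.046 and 0.419, and free RNA followed the same days. *Ccl6* in intermediate cells was at 7.88, 10.9, 12.3, 13.3 and 6.00, with the middle days above both ends. *Il1rn* in intermediate cells varied little, between 0.94 and 1.54.

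In monocyte-like cells *Cxcl2* was at 1.63, 0.19, 0.39, 0.32 and 1.16 UMIs per 10000 UMIs, *Ccl3* at 2.58, 0.44, 0.45, 0.60 and 2.07 and *Tnf* at 0.26, 0.12, 0.13, 0.11 and 0.18. All 3 genes were highest at day 0, second at day 12 and lower at the middle days. *Ccl9* was at 9.72, 7.33, 9.18, 6.72 and 6.53, and *Ccl6* at 8.76, 8.10, 9.57, 8.28 and 7.29, and neither was 1.5-fold from day 0 on any day. *Ccl4* did not follow the others, at 0.20, 0.16, 0.08, 0.25 and 0.31, with day 12 above day 0 by a ratio of 1.52 (1.16 to 2.003). Single cells carried much of these sums, with 50 of 83 *Ccl4* UMIs in 1 cell at day 3, 55 of 150 at day 9 and 24 of 128 at day 12, and day 12 was no longer past 1.5-fold without likely doublets, with means over cells or at the finer clustering. Counted at 1.5-fold, 4, 4, 4 and 1 of the 8 genes were lower at days 3, 6, 9 and 12, beside 3.09%, 2.81%, 3.6% and 1.65% of all genes, and 0, 0, 0 and 1 were higher, beside 6.46%, 6.57%, 7.18% and 4.57%. The filter was passed by 7, 6, 7 and 7 of the 8 genes, of which 4, 3, 4 and 1 were lower. At the finer clustering, with the *Nr4a2* cells included, 3, 3, 4 and 4 of the 8 were lower and none was higher.

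Levels of *Cxcl2* and *Il1b* in this monocyte-like class overlapped the background when expressed per 10000 UMIs. This did not hold for the *Nr4a2* cells left out of the class, which carried 38.5% to 76.0% of the *Cxcl2* UMIs and 63.3% to 75.6% of the *Il1b* UMIs of all cells named monocyte-like at the finer clustering. B-like cells had *Cxcl2* at 1.30, 0.12, 0.38, 0.33 and 0.44 and *Il1b* at 0.357 to 0.874, against *Il1b* at 0.340 to 0.644 in monocyte-like cells. T-like cells had *Cxcl2* at 0.125 to 1.57. After thinning, 2.44% to 9.56% of monocyte-like and 0.694% to 6.17% of B-like cells had a *Cxcl2* UMI. Per cell, monocyte-like cells held 1.05, 0.173, 0.379, 0.263 and 0.812 *Cxcl2* UMIs, above the B-like values on each day, at a median of 5806 to 8299 UMIs per cell against 1300 to 1810. *Ccl3* stood clear of the background, with 1.66, 0.404, 0.438, 0.493 and 1.44 UMIs per monocyte-like cell against 0.155, 0.006, 0.047, 0.018 and 0.146 per B-like cell.

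**Figure D4:**
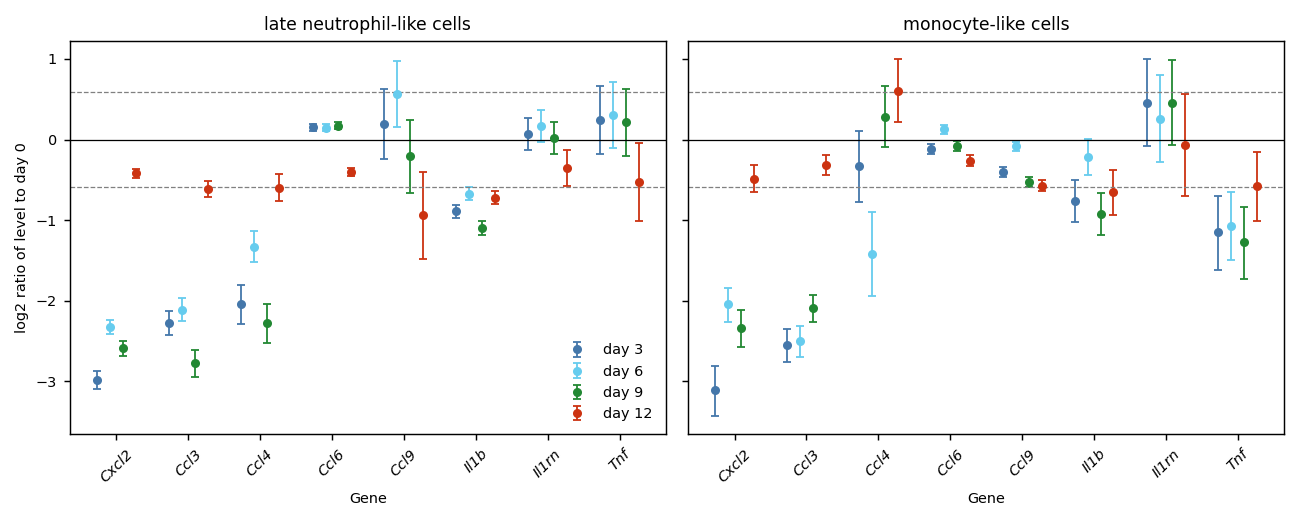
Log2 ratio to day 0 of each gene in late neutrophil-like cells (left) and monocyte-like cells (right), with 95% intervals from counting error as bars, and dashed lines at 1.5-fold. *Cxcl2* and *Ccl3* lie below -2 at days 3, 6 and 9 in both classes and above -0.7 at day 12, while *Ccl6* stays within the dashed lines on each day.

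Free RNA and stress genes moved with the same days. In barcodes with at most 100 UMIs, which hold free RNA, *Cxcl2* was at 5.26, 1.29, 2.22, 1.56 and 6.85 and *Ccl3* at 2.76, 0.83, 1.0, 0.77 and 2.99 UMIs per 10000 UMIs, whereas *Ccl6* was at 6.47, 9.99, 9.94, 10.1 and 7.38. The summed level of 21 immediate-early and dissociation genes was 173.5, 91.6, 100.2, 83.7 and 126.1 in late neutrophils, 135.1, 75.9, 73.4, 73.6 and 96.0 in monocyte-like cells and 74.1, 43.8, 49.3, 48.7 and 57.2 in B-like cells. Of the genes of this list, 11, 10, 13 and 6 of the 17 that passed the filter were lower at days 3, 6, 9 and 12 in late cells, and 13, 13, 14 and 7 of 20 in monocyte-like cells. Their median log2 ratio in late cells was -1.004, -0.91, -1.01 and -0.51, beside 0.09, 0.11, 0.08 and -0.08 over all genes. The part of this list in the day differences of *Cxcl2* and *Ccl3* was not tested.

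Named genes of that list had the same order in monocyte-like cells. *Atf3*, an early response transcription factor, was at 5.17, 0.60, 0.67, 0.83 and 2.63 UMIs per 10000 UMIs, and *Dusp1*, a MAP kinase phosphatase, at 14.0, 3.44, 3.82, 4.05 and 8.75. *Klf2* and *Socs3* were also past 1.5-fold at days 3, 6 and 9. In neutrophil-like cells of all stages *Atf3*, *Egr1*, *Klf2* and the heat-shock gene *Dnajb1* were named by the same rule, with *Klf2* at 13.2, 4.77, 4.63, 5.02 and 8.39. Each of these genes was highest at day 0 and next highest at day 12 in its class.

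Other genes of the pathway were counted from fixed lists. Of the 30 NF-kappaB and inflammasome genes, 8, 6, 9 and 3 were lower at days 3, 6, 9 and 12 in late neutrophil-like cells, of 12, 13, 13 and 12 that passed the filter, and none was higher. In monocyte-like cells 8, 8, 8 and 3 were lower and 1, 0, 1 and 1 higher, of 25, 26, 24 and 23. The shares over all genes are those given above, 4.6%, 3.58%, 5.75% and 6.57% lower in late and 3.09%, 2.81%, 3.6% and 1.65% lower in monocyte-like cells. *Cd14*, the co-receptor for lipopolysaccharide, was at 2.67, 0.784, 0.936, 0.818 and 2.29 UMIs per 10000 UMIs in late cells, and *Nlrp3*, the inflammasome sensor, at 1.53, 0.594, 0.743, 0.667 and 1.76. Both had days 0 and 12 above the 3 middle days. Among 26 other chemokines and cytokines, 3, 2, 2 and 0 of the 8, 9, 8 and 6 that passed were lower in monocyte-like cells and 1, 1, 0 and 0 higher, with median log2 ratios of -0.05, 0.01, 0.18 and -0.16, beside 0.09, 0.10, 0.06 and 0.06 over all genes. Within the list, *Ccl2*, which attracts monocytes, was at 1.80, 0.29, 0.29, 0.36 and 1.501 in monocyte-like cells and *Osm* at 0.765, 0.214, 0.241, 0.268 and 0.518.

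*Cxcr2*, the receptor of *Cxcl2*, was at 4.71, 4.99, 4.94, 4.59 and 4.01 UMIs per 10000 UMIs in late neutrophil-like cells, and *Ccr1*, a receptor of *Ccl3*, at 3.99, 3.10, 3.58, 2.90 and 3.39. Neither was 1.5-fold from day 0 on any day. *Il1r2*, the decoy receptor of interleukin-1, was at 5.48, 3.36, 3.10, 3.14 and 3.99, with days 0 and 12 above the 3 middle days. In late against immature cells, 6 of 6 receptors tested were higher, beside 30.8% of all genes. The log2 fold changes were 2.74 for *Cxcr2*, 2.65 for *Ccr1*, 1.95 for *Il1r2* and 1.17 for *Tnfrsf1a* (each with an edgeR adjusted p of at most 1.06e-11).

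The other lists rose with maturation as well. In late cells, 24 of 30 NF-kappaB and inflammasome genes were higher and 1, the inflammasome adaptor *Pycard* (-0.96), was lower. Over all genes, 30.8% were higher and 30.9% lower in late cells, which holds for each list count of this contrast. *Nlrp3* rose by 3.68, *Clec4e* by 2.07, *Zfp36* by 1.79 and *Nfkbia* by 1.57 on the log2 scale. Of the immediate-early and dissociation genes 17 of 20 were higher, with *Atf3* at 2.66, *Dusp1* at 2.31 and *Fos* at 1.83. The medians of the 2 lists were 1.35 and 1.22, beside -0.03 over all genes. Of the other chemokines and cytokines 8 of 10 tested were higher, for example *Osm* (1.66) and *Ltb* (1.55). In monocyte-like against neutrophil-like cells, 6 of 14 of these, 6 of 30 NF-kappaB and 7 of 21 immediate-early genes were higher and 7, 18 and 13 were lower under TMM scaling. Over all genes, 39.1% were higher and 40.2% lower. The shift of 1.13 between the scalings applies to these lists as well.

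Single cells showed how the level of each gene was made up. In late neutrophil-like cells, 17.4%, 2.38%, 3.16%, 2.46% and 16.7% held at least 10 *Cxcl2* UMIs from day 0 to day 12, and the most in 1 cell was 98, 41, 95, 33 and 72. Cells with many *Cxcl2* UMIs were thus present on each day and were fewer on the middle days. The 10% of cells with most *Cxcl2* held 56.4%, 87.2%, 73.3%, 73.3% and 49.6% of its UMIs. For *Ccl4* the top 10% held 92.2% to 100% on the 5 days. Only 4.64% to 14.0% of late cells had any *Ccl4* UMI, so its share was largely set by low detection. *Ccl6* was spread evenly, with 24.0% to 27.3% in the top 10% of cells and a median of 5 to 10 UMIs per cell.

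Joint detection was taken after thinning each late cell to 1000 UMIs. *Ccl3* was found in 40.7%, 24.1%, 19.1%, 15.3% and 34.3% of cells with a *Cxcl2* UMI and in 21.5%, 7.38%, 9.45%, 5.45% and 20.5% of cells without one. The intervals of the pair were apart on each of the 5 days. *Il1b* was likewise more frequent in cells with *Cxcl2*, with intervals apart at days 0, 9 and 12, for example in 62.6% (57.8% to 67.3%) against 47.4% (42.6% to 52.3%) at day 0 and in 53.6% (46.3% to 60.7%) against 34.4% (31.1% to 38.0%) at day 9. *Tnf* was found in 11.2%, 12.1% and 8.16% of cells with *Cxcl2* at days 3, 6 and 9 and in 2.51%, 2.97% and 2.53% of those without, and at days 0 and 12 the intervals overlapped. For *Ccl4* they were apart at days 0, 3 and 6, and for *Ccl6* and *Il1rn* on no day. Cells of 1 library share their source and their free RNA, so these shares describe the 5 libraries.

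The balance of *Il1b* and its antagonist differed between days in the same cells. Late neutrophil-like cells held 8.03 (7.20 to 8.98) *Il1b* UMIs per *Il1rn* UMI at day 0, and 4.13 (3.72 to 4.58), 4.48 (4.08 to 4.94), 3.69 (3.34 to 4.09) and 6.22 (5.53 to 7.002) at days 3, 6, 9 and 12. Days 0 and 12 were above the middle days with intervals apart. *Il1rn* itself lay between 1.99 and 2.23 UMIs per 10000 UMIs from day 0 to day 9.

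At a finer clustering, 590 late cells formed a cluster led by *Irg1*, the gene of itaconate synthesis. It was looked at after its values had been seen, and its levels are a description. *Cxcl2*, *Ccl4*, *Il1b* and *Ccl3* were themselves among its leading genes, so their high level in it is not a separate result. *Cxcl2* there was at 76.9, 19.9, 21.9, 20.3 and 52.0 UMIs per 10000 UMIs, *Ccl3* at 21.0, 6.92, 8.58, 7.26 and 10.6, *Ccl4* at 15.2, 6.19, 8.24, 2.28 and 6.27 and *Il1b* at 28.9, 20.5, 19.0, 21.2 and 25.04. The order of days was kept within it, with days 0 and 12 above the others for *Cxcl2* and *Ccl3*. The cluster made up 14.5%, 8.40%, 10.1%, 7.53% and 8.01% of the cells that were late at this clustering and held 37.3%, 52.9%, 44.9%, 33.3% and 19.97% of their *Cxcl2* UMIs. *Tnf* in it was at 1.89, 2.79, 2.34, 2.74 and 1.24, and *Ccl6* at 26.3 to 42.1. The late cells outside it followed the days too, with *Cxcl2* at 22.0, 1.52, 3.42, 2.59 and 18.7 in the cluster led by *Ifitm1* and at 13.2, 0.82, 2.20, 1.58 and 9.00 in the interferon-responsive cluster led by *Rsad2*.

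**Figure D5:**
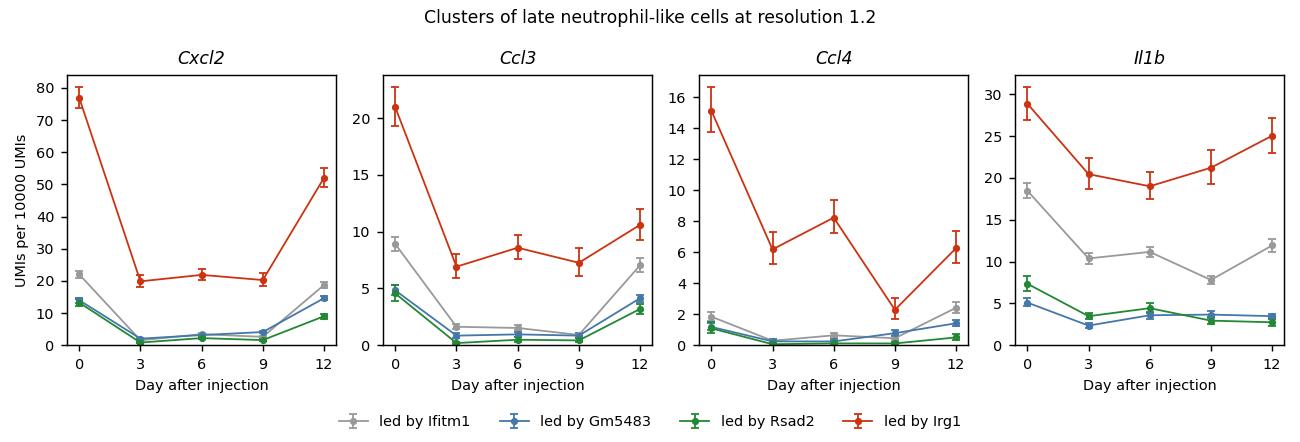
Levels of *Cxcl2*, *Ccl3*, *Ccl4* and *Il1b* (UMIs per 10000 UMIs, linear axis) by day after injection in the 4 finer clusters of late neutrophil-like cells, named by their leading gene, with exact 95% Poisson intervals as bars. The cluster led by *Irg1*, which has these 4 genes among its leading genes, is highest for each of them on each day. *Cxcl2* in it is at 76.9 at day 0 and at 19.9 to 21.9 at days 3, 6 and 9.

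The unnamed *H2-Eb1* cluster also carried several of the genes. Its *Cxcl2* was at 13.9, 2.71, 3.29, 2.30 and 4.80 UMIs per 10000 UMIs, so that day 0 was highest and day 12 was closer to the middle days than in late neutrophil-like cells. *Il1b* was at 7.3, 7.0, 7.79, 5.90 and 4.67 in it, with day 3 and day 6 close to day 0. The 551 cells led by *Nr4a2* and *Cd14*, named monocyte-like at the finer clustering, fell almost wholly into it (99.6%), with *Cxcl2* at 18.8, 4.14, 5.07, 4.81 and 7.23 and *Il1b* at 8.19, 8.62, 11.6, 8.82 and 7.11. The finer cluster led by *H2-Eb1* and *H2-Aa* (546 cells) had less, with *Cxcl2* at 0.409 to 1.68 and *Il1b* at 3.77 to 5.71 over 4 libraries.

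*Ccl4* in NK-like cells was at 7.05, 1.16, 3.11 and 6.69 UMIs per 10000 UMIs at days 0, 6, 9 and 12, and at 2.97 at day 3, when only 49 such cells were present. Day 0 and day 12 were again above the others. Plasmacytoid dendritic-like cells had *Ccl4* at 3.33, 0.84, 0.96 and 0.98 at days 0, 3, 6 and 9, with day 0 highest, and only 32 cells at day 12. *Ccl5*, a chemokine of cytotoxic lymphocytes from the list of other chemokines, was at 102.7 on average in NK-like cells, with a range of 79.7 to 115.1. *Ccl9* in granulocyte-monocyte progenitor-like cells was at 1.33, 1.79, 2.1, 1.71 and 1.08, lowest at day 12.

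The genes whose levels were most like those of each of the 8 were found by Pearson's r over 64 pairs of a class and a library, among 7408 genes. The pairs share libraries and classes, so r is a description. *Cxcl2* was most like *Dusp1* (0.887), *Nfkbiz* (0.886) and *Klf6* (0.884), and *Ccl3* most like *Cxcl2* (0.854), *Klf6* and *Dusp1*. *Il1b* was most like *Ptgs2* (0.917), *Il1rn* most like *Tarm1* (0.937) and *Ccl6* most like *Gm5150* (0.9501). *Ccl9* was most like the monocyte marker *F13a1* (0.965). *Tnf* and *Ccl4* had weaker partners, *Ier3* (0.786) and *Stat3* (0.767).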

How the data were processed

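Bone marrow of 5 mice was measured with 10x Genomics 3' chemistry, in 1 library per day. The authors deposited raw UMI counts per gene and barcode, made with Cell Ranger on mm10 per the labels, with empty barcodes included and no normalization. The 8 genes, the gene lists and the comparisons were chosen with earlier results of these data known. All barcodes with at least 500 UMIs and at most 10% mitochondrial UMIs were kept, doublets included, because the caller of Scrublet marked almost no cells in 4 libraries.

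Cells of all libraries were scaled to 10000 UMIs and clustered in scanpy 1.11.5 (Python 3.11.15) and leidenalg 0.10.2, using 981 variable genes without 95 listed genes, 20 principal components, 20 neighbors and a resolution of 0.6. To give a cluster the name of a class, 3 or more markers of the class had to reach 20% of the cells and 2 times the level found elsewhere, with no contrary leading genes. Ratios of counts between days were given with exact intervals and no test. Class contrasts used edgeR 4.0.16 in R 4.3.3 on counts summed per library, with TMM scaling, the library as a block, all genes and Benjamini-Hochberg adjustment. The spread there includes differences between days and animals. The library pairs both classes because both came from 1 animal. DESeq2 1.42.0, size factors, total counts, other limits on UMIs, mitochondrial share and doublets, thinning, a finer clustering and leaving out libraries were tried. All 8 genes were named, together with listed genes past 1.5-fold at days 3, 6 and 9 in neutrophil-like or monocyte-like cells (up to 4 per list and class), up to 4 per list by highest level and the 3 most alike per gene among genes with at least 1000 UMIs. *Pycard* and the finer clusters were chosen after their values were seen. Positions came from GENCODE vM21 and promoters from RefSeq. The steps were tested on simulated data.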

Additional observations from a re-analysis of the deposited data

How the results depend on the processing

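Of 800 recomputed day ratios of single genes, 649 stayed within the counting interval of the reported ratio and 151 moved outside it, and none that was past 1.5-fold turned direction. Counts of the 8 genes past 1.5-fold moved in 28 of 248 cases, at small counts. In neutrophil-like cells of all stages, the 3 genes higher at day 6 became 1 with thinned cells, means over cells, a total without abundant genes or equal stage weights and 0 at 2-fold, and the 1 at day 9 became 0 under the same 5. The 1 lower at day 12 became 3 with thinned cells or means over cells, 2 with the reduced total or equal stage weights and 0 at 2-fold. In late cells, 1 gene instead of 0 was higher at day 6 with means over cells, and the 4 lower at day 12 became 2 without likely doublets or with the reduced total and 0 at 2-fold. In monocyte-like cells, 1 gene instead of 0 was higher at day 9 with thinned cells. At day 12, the 1 lower gene became 3 without likely doublets, 4 at resolution 1.2, 2 with thinned cells and 0 at 2-fold, and the 1 higher gene became 0 without likely doublets, at resolution 1.2, with means over cells and at 2-fold. The cause was not tested. In the class contrasts, scaling to total counts turned *Ccl3* to 0.26 and *Ccl6* to 0.0761 and gave 2 of the 8 genes higher in monocyte-like cells, with 8326 genes higher and 1297 lower. Thinning gave 2614 and 2668, and 1284 and 1228 in late against immature cells, with fewer counts in the fit. Of 256 recomputed class contrasts of single genes 251 kept their direction and call, those of DESeq2 among them. Without the replicate block, 6 of the 8 genes were lower in monocyte-like cells and 7 were higher in late cells. Leaving out 1 library at a time gave 3924 to 4148 genes higher and 4100 to 4167 lower in monocyte-like cells, and 2146 to 2332 and 2062 to 2181 in late cells, with 1 and 7 and with 8 and 0 of the 8 genes each time. *Tnf*, *Ccl9* in neutrophils and *Ccl4* outside NK-like cells rest on few UMIs per cell, and 1 mouse per day leaves the spread between mice unknown. Equal stage weights, total counts, the removal of shared barcodes and the settings of the late cells were chosen after seeing the data.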
